A study of Mus musculus with 4 samples.

Results

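Semaphorins and their fellow guidance ligands and receptors were followed in the lungs of mice with endothelial loss of the transcription factor ERG (ETS-related gene). The group held 10 genes of the axon-guidance families, taken as listed from the 20076 gene rows of the count matrix: the secreted semaphorins Sema3c, Sema3d and Sema3g, the transmembrane semaphorins Sema5a and Sema6a, the receptors Plxnd1, Unc5b, Unc5c and Robo4, and the secreted ligand Slit2. Sema5a and Unc5c were chosen by their higher counts in the endothelial cells (ECs) of these same ERG CKO mice, so their difference between genotypes is described below without a test, whereas the other 8 genes were tested. All mice carried floxed Erg alleles (ERG fl/fl) and received 5 daily injections of 0.5 mg tamoxifen. The 2 WT mice had no Cre, and the 2 ERG CKO mice also carried CDH5-CreER(T), a tamoxifen-inducible Cre driven by the promoter of the endothelial cadherin gene Cdh5. Whole lungs were taken 90 days after the injections and dissociated for droplet-based single-cell RNA-seq, with 1 mouse per library. Because the WT mice lacked Cre, the presence of Cre and the loss of ERG cannot be told apart, and neither the age of the mice behind these single-cell libraries nor the deleted exon was found in the sources used here.

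Guidance molecules were first described in growing axons, and blood vessels use the same ligands and receptors to steer, repel or stabilise EC contacts. Class 3 semaphorins are secreted and act through neuropilin and plexin receptors, class 5 and 6 semaphorins are anchored in the membrane, UNC5 receptors bind netrins, and ROBO receptors bind SLIT ligands. In the lung capillary bed, general capillary (gCap) ECs act as progenitors and regulate vessel tone, and aerocytes (aCap ECs) are spread thinly over the alveoli for gas exchange.

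The 4 libraries held 9363 cells, 1852 to 3097 per library, with 11263911 to 18646776 unique molecular identifiers (UMIs, each marking 1 captured RNA molecule) and a median of 4611 to 4899 UMIs per cell. Cells were grouped without use of any guidance gene and named from marker genes, which gave 2524 ECs, 502 to 747 per library. Names such as gCap-like were rebuilt here and may differ from those of the study. ECs expressed all 10 of their defining markers, at summed levels of 16457 to 21004 CPM (UMIs per 1000000 UMIs of the summed cells, not scaled by transcript length). Replicate 1 of both genotypes had Xist UMIs and no Ddx3y UMI and replicate 2 the reverse, so sex was balanced between the genotypes. Of the barcodes, 7 occurred in 2 libraries. Erg itself was detected in ECs at 85.7 and 88.4 CPM in WT and at 105 and 81.6 in ERG CKO, and did not pass the test (log2 fold change 0.07, SE 0.16, edgeR adjusted p = 0.890). Because the deleted exon is not known and the matrix holds 1 count per gene, these counts check neither the labels nor the deletion.

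Of the 10 genes, 9 had a promoter in the RefSeq table used (build GRCm38.p6, which corresponds to mm10, the build named in the submitters' processing notes). ERG belongs to the ETS family, whose members bind DNA around a GGAA core, so the 250 bases before the transcript start used in that table were searched for GGAA and its reverse complement TTCC, and for the longer AGGAAG and its reverse complement CTTCCT, which contain the core. Shown are the promoters of 2 genes whose EC levels lay lower in both ERG CKO libraries than in both WT libraries, Robo4 (chr9:37401722-37401971, plus strand) and Sema3g (chr14:31217623-31217872, plus strand), and of the 2 genes listed for their rise, Sema5a (chr15:32244563-32244812, plus strand) and Unc5c (chr3:141465314-141465563, plus strand). They are written 5′ to 3′ on the strand of the gene, and capitals mark GGAA or TTCC.
Robo4: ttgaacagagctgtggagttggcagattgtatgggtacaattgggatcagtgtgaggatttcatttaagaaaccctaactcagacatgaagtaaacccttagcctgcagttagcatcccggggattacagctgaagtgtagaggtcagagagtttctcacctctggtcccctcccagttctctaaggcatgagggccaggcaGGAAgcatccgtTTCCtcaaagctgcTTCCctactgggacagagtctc
Sema3g: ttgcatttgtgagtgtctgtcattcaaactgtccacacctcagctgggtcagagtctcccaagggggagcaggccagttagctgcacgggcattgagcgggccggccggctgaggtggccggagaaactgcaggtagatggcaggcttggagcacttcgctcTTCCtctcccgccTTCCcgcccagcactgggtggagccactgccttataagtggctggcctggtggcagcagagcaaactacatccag
Sema5a: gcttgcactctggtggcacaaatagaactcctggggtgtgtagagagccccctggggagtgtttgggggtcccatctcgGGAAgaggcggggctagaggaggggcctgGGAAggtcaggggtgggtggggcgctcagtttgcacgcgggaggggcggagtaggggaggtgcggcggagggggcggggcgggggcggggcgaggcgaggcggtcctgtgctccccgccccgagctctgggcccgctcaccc
Unc5c: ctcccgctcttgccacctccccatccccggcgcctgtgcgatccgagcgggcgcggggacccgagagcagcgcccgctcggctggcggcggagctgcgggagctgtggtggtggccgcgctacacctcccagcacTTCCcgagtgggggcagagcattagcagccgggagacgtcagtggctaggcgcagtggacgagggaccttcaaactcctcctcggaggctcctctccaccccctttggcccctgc
Robo4 had 3 core matches, Sema3g and Sema5a 2 each and Unc5c 1. Among the others, Sema3d and Plxnd1 had 5, Unc5b and Slit2 had 2, and Sema3c had none. Over all 32841 promoters of this length, 93.5% held at least 1 core and the median was 3 matches. The longer AGGAAG was found once in Robo4 and once in Sema3g, 2 times in Plxnd1 and in none of the other 6, against 29.5% of all promoters. All 4 promoters shown held the core, as did most promoters, and the Sema3c promoter did not. The Robo4 window reaches into the annotated gene, and the other 3 end just before the gene. The genes span 12.1 kb (Robo4, chr9:37401902-37414023) to 451.5 kb (Sema5a, chr15:32244813-32696341).

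Most of the genes tested were more abundant in ECs than elsewhere. Within each library the summed ECs were compared with the sum of all other named cells (edgeR quasi-likelihood test with the library as a block, Benjamini-Hochberg adjustment over 13446 genes). Of all genes tested, 67.0% were called, 30.6% higher and 36.3% lower in ECs, where a call is an adjusted p of at most 0.05. Of the 8 genes not chosen for their rise, 7 were called higher in ECs and 1 was called lower. Sema5a and Unc5c are described without a test here too, because their EC levels in ERG CKO entered their choice. A limit of this comparison lies in the other classes: the 10 EC markers summed in fibroblast-like cells to 28.8% to 42.8% of their level in ECs of the same library, in mural-like cells to 20.8% to 46.4% and in platelet-like cells to 36.7% to 59.2%, but in T cell-like cells only to 0.821% to 1.74%. The part of this EC RNA in the levels of those classes was not tested.

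**Figure D1:**
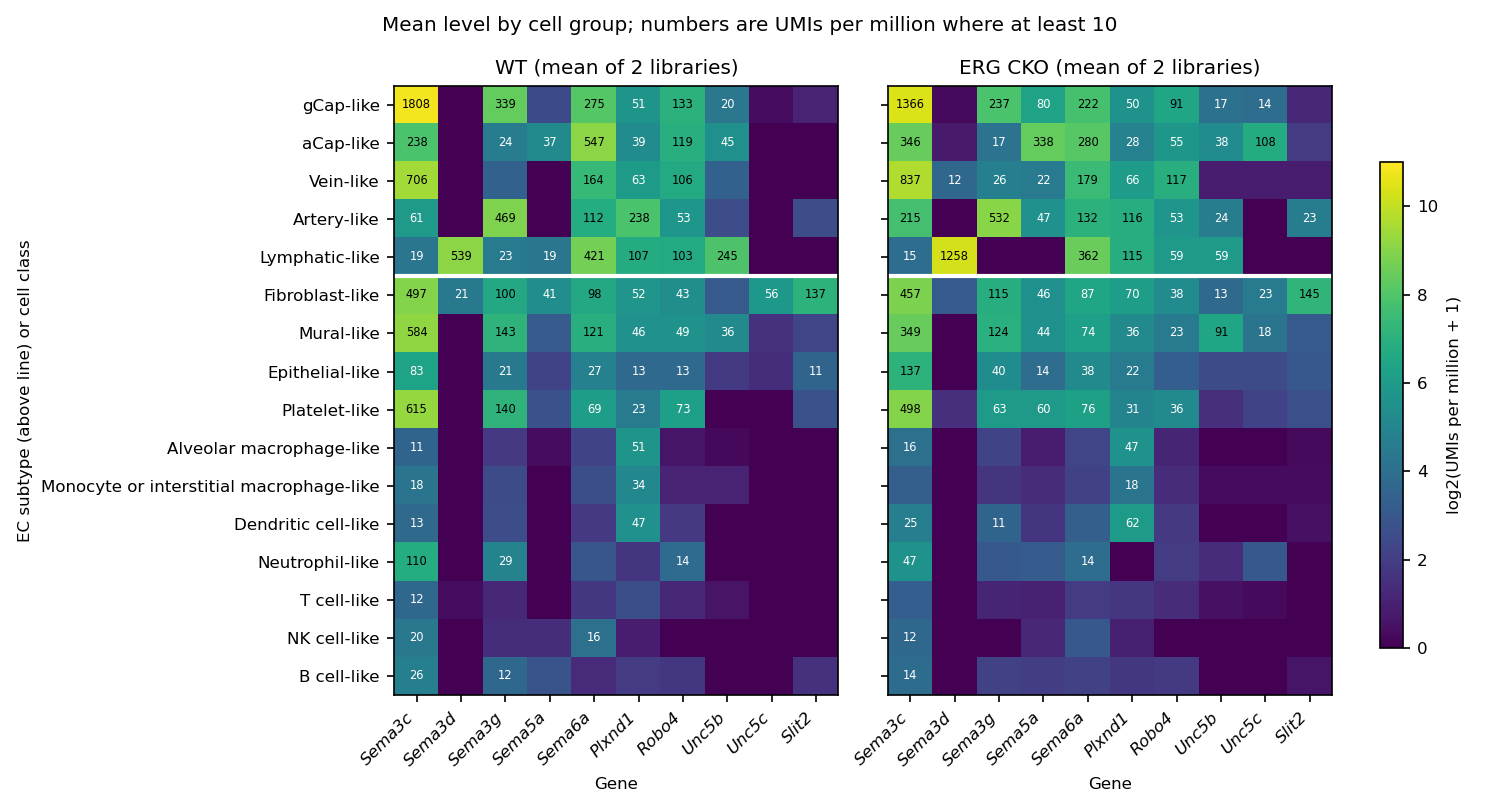
Mean level of the 10 genes in EC subtypes (above the white line) and in other cell classes, in WT (left) and ERG CKO (right), coloured by log2(CPM + 1), with the level printed where it was at least 10. Sema3c is brightest in gCap-like ECs, Sema3d in lymphatic-like ECs and Slit2 in fibroblast-like cells, and the Sema5a and Unc5c columns differ between the panels in aCap-like ECs.

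Sema3c, a secreted ligand that signals through neuropilins and plexins, reached 1656, 1166, 939.6 and 1066 CPM in ECs of WT replicates 1 and 2 and ERG CKO replicates 1 and 2, against 33.96 to 104 in all other named cells. Its ratio of ECs to other cells was 14.6-fold (log2 3.87, SE 0.22, edgeR adjusted p = 6.3e-06). Sema6a, a transmembrane semaphorin that binds A-type plexins, was 14.2-fold higher in ECs (log2 3.83, SE 0.20, adjusted p = 5.3e-06), and Robo4, an endothelial member of the ROBO family known for stabilising the vessel wall, was 13-fold higher (log2 3.70, SE 0.14, adjusted p = 1.7e-06). For these genes every EC value lay above every value of the other cells. In fibroblast-like cells, Robo4 stood at 27.7% to 49.3% of its EC level and Sema6a at 30.4% to 41.3%, ranges that overlap that of the EC markers there.

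Sema3g, a secreted semaphorin made by vessels, was 11.4-fold higher in ECs than in other named cells (log2 3.51, SE 0.13, adjusted p = 1.8e-06), and Unc5b, a netrin receptor of arterial and sprouting endothelium, was 9.1-fold higher (log2 3.19, SE 0.25, adjusted p = 2.9e-05). Unc5b was also found in mural-like cells, at 27.4, 44.6, 51.1 and 131 CPM from 4 to 14 UMIs a library, which is 97.4% to 437% of its EC level, above the share of the EC markers there. Sema5a stood at 9.60 and 7.53 CPM in WT ECs, with 5.64 and 2.69 in the other named cells of those libraries, and at 100.1 and 149 in ERG CKO ECs, with 8.63 and 4.20 in the others. Sema3d was higher by log2 2.37 (SE 0.58, adjusted p = 0.0083), but without ERG CKO replicate 1 this was not called (adjusted p = 0.061), and without alignment of the libraries its sign turned (-0.57).

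Plxnd1, the plexin that receives Sema3e, was the least endothelial of the genes called higher, with log2 0.91 (SE 0.08, adjusted p = 7.2e-05). It was present in alveolar macrophage-like cells at 42.3 to 53.9 CPM, close to its 57.5 to 65.8 in ECs, although EC markers in those cells summed to at most 1.48% of their EC level. It was also detected at 28.3 to 68.4 in dendritic cell-like and at 14.3 to 36.5 in monocyte or interstitial macrophage-like cells. Slit2, the secreted ligand of ROBO receptors, was the gene called lower in ECs (log2 -2.54, SE 0.36, adjusted p = 0.00067). Its level was 167, 108, 134 and 157 CPM in fibroblast-like cells of the 4 libraries, against 0.941 to 3.43 in ECs, where only 3 to 16 UMIs were counted.

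Unc5c, a netrin receptor best known from neurons, was shared by 2 compartments. Fibroblast-like cells held it at 73.7 and 39.3 CPM in WT and at 36.3 and 9.82 in ERG CKO, from 65, 16, 40 and 2 UMIs. ECs held 1 and 0 UMIs in WT and 105 in each ERG CKO library.

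ECs were split into 1626 gCap-like, 315 aCap-like, 170 vein-like, 71 artery-like and 25 lymphatic-like cells, and 317 ECs in 3 clusters stayed unnamed because they carried markers of platelets or B cells or leading genes of another class. Among the named EC subtypes Sema3g was highest in artery-like ECs, at 462, 476, 546 and 519 CPM, above its highest value of 387 in the summed gCap-like ECs of any library. Within the gCap-like ECs, 1 cluster reached 530 in WT replicate 1. An unnamed EC cluster of 130 cells stood at 878 and 671 in WT and at 222 and 321 in ERG CKO. Among the named subtypes Plxnd1 was highest on average in artery-like ECs (308, 168, 151 and 81.0), but its range overlapped that of lymphatic-like ECs (59.2 to 171). The same unnamed cluster held Plxnd1 at 251, 55.9, 272 and 329. Artery-like ECs numbered only 14 to 23 per library and were not tested between genotypes.

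Within ECs, Sema3d was nearly confined to the lymphatic-like ECs, with 345, 733, 1659 and 856 CPM from 9, 16, 56 and 10 UMIs in 7, 7, 8 and 3 cells. These cells gave 91 of the 106 Sema3d UMIs counted in ECs, and artery-like ECs gave none. Outside ECs, fibroblast-like cells held Sema3d at 19.3, 22.1, 15.4 and 0 CPM from 17, 9, 17 and 0 UMIs. Lymphatic-like ECs also held Sema6a at 296 to 458 CPM, a range overlapping that of aCap-like ECs (270.3 to 594) and above that of gCap-like ECs (219 to 278). With 3 to 8 lymphatic-like ECs per library, counting error alone is wide for their levels.

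The capillary ECs divided the semaphorins between them. Sums of aCap-like and gCap-like ECs were compared within each library (edgeR, library as block, 9365 genes tested, of which 19.2% were called, 8.45% higher and 10.7% lower in aCap-like ECs). The genes of this report were left out of the clustering that defined both groups, although genes that vary with them were not. Of the 8 genes not chosen for their rise, 6 passed the filter on low counts, 2 were called higher in aCap-like ECs, 2 were called lower, and Sema3d and Slit2 were not tested.

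**Figure D2:**
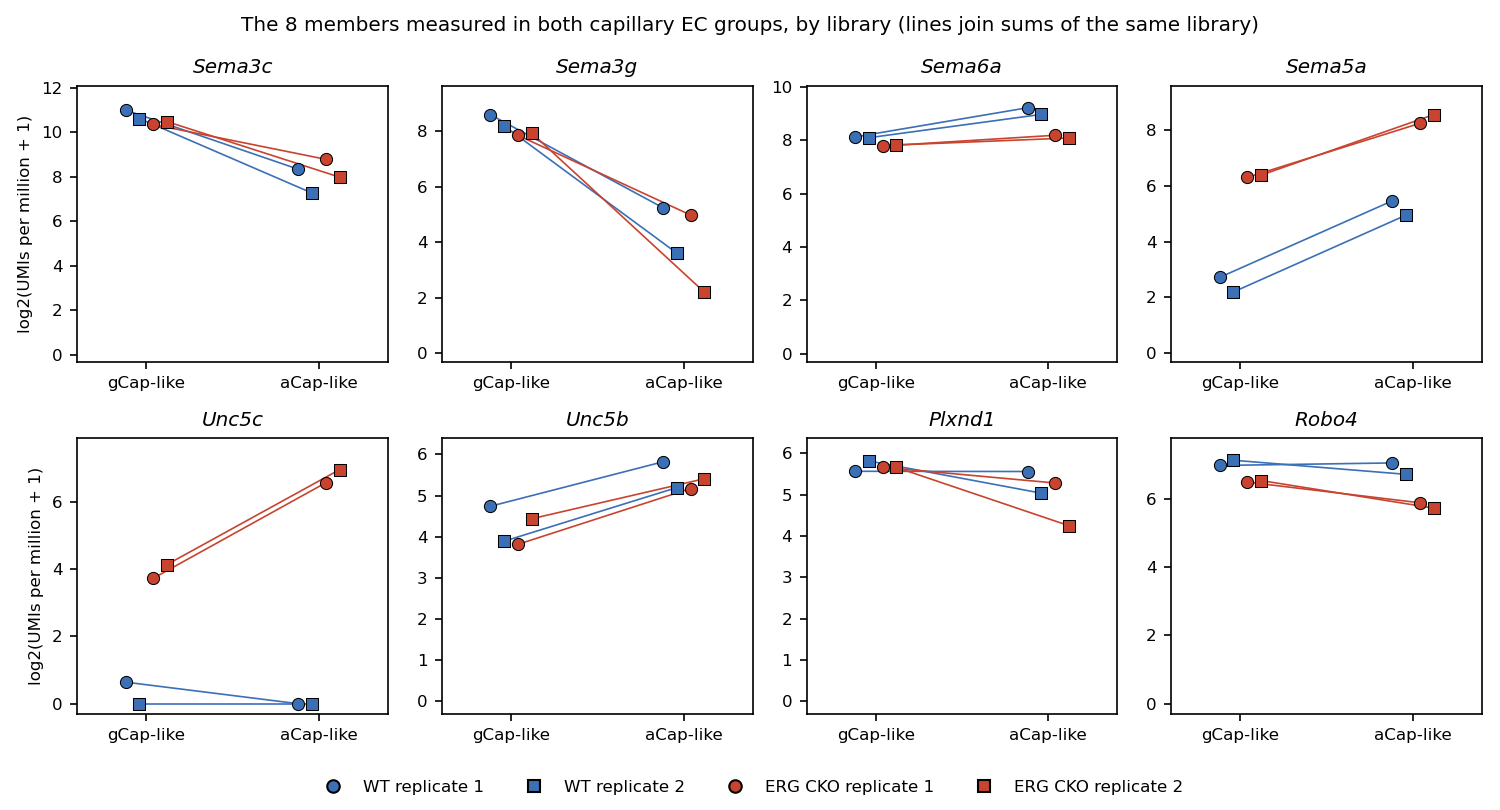
Level of 8 genes in gCap-like and aCap-like ECs, as log2(CPM + 1), with each library joined by a line (WT blue, ERG CKO red, circles replicate 1, squares replicate 2). All 4 lines fall for Sema3c and Sema3g and rise for Sema5a, Sema6a and Unc5b, and the Unc5c lines rise in the ERG CKO libraries only.

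Sema3c and Sema3g were higher in gCap-like than in aCap-like ECs. Sema3c stood at 2045, 1572, 1305 and 1427 CPM in gCap-like ECs and at 323, 153, 440.4 and 252 in aCap-like ECs, a difference of log2 -2.52 (SE 0.25, adjusted p = 0.00013). Sema3g stood at 387, 292, 231 and 244 in gCap-like ECs and at 37.0, 11.2, 30.6 and 3.60 in aCap-like ECs (log2 -3.88, SE 0.33, adjusted p = 6.9e-05). For both genes every gCap-like value lay above every aCap-like value.

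Unc5b and Sema6a were higher in aCap-like ECs. Unc5b was higher in all 4 libraries (55.4, 35.6, 35.0 and 41.4 CPM against 25.7, 13.8, 13.1 and 20.7; log2 1.19, SE 0.20, adjusted p = 0.0027), and Sema6a was higher by log2 0.64 (SE 0.16, adjusted p = 0.020). When cells were thinned to 1000 UMIs, Unc5b was not called (adjusted p = 0.109), and Sema6a was not called without WT replicate 1 (0.103), without WT replicate 2 (0.063) or under 3 other alternatives. Plxnd1 (log2 -0.65, SE 0.23, adjusted p = 0.076) and Robo4 (log2 -0.46, SE 0.17, adjusted p = 0.093) did not pass the test. As a description, Sema5a, a transmembrane semaphorin with thrombospondin repeats, stood higher in aCap-like than in gCap-like ECs of each library, by the levels given further on, whereas aCap-like ECs of WT had no Unc5c UMI.

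To ask which of these genes depend on ERG in ECs, the summed ECs were compared between ERG CKO and WT (edgeR, 10715 genes tested, of which 3.46% were called, 2.02% higher and 1.45% lower). Of the 8 genes not chosen for their rise, 7 passed the filter and Slit2 did not, and none of the 7 was called. At an unadjusted p under 0.05 there were 4 of 7, all lower (8.3% of all genes tested were lower and 8.44% higher at that limit), and DESeq2 called 1, Sema3g. In 4 of the 7, Sema3c, Sema3g, Sema6a and Robo4, both ERG CKO libraries lay below both WT libraries, against 19.3% of all genes tested, with 27.5% the other way. The median log2 fold change of the 7 was -0.45, and that of all genes tested was 0.01. With the replicate number, which coincided with sex, as a term of the model, 4 of the 7 were called, all lower (Sema3c, Sema3g, Sema6a and Robo4, with edgeR adjusted p of 0.019, 0.0029, 0.012 and 0.0024), and so were 1262 of all genes tested. With 2 mice a group, the exact permutation test of a single value cannot give a p below 0.333.

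**Figure D3:**
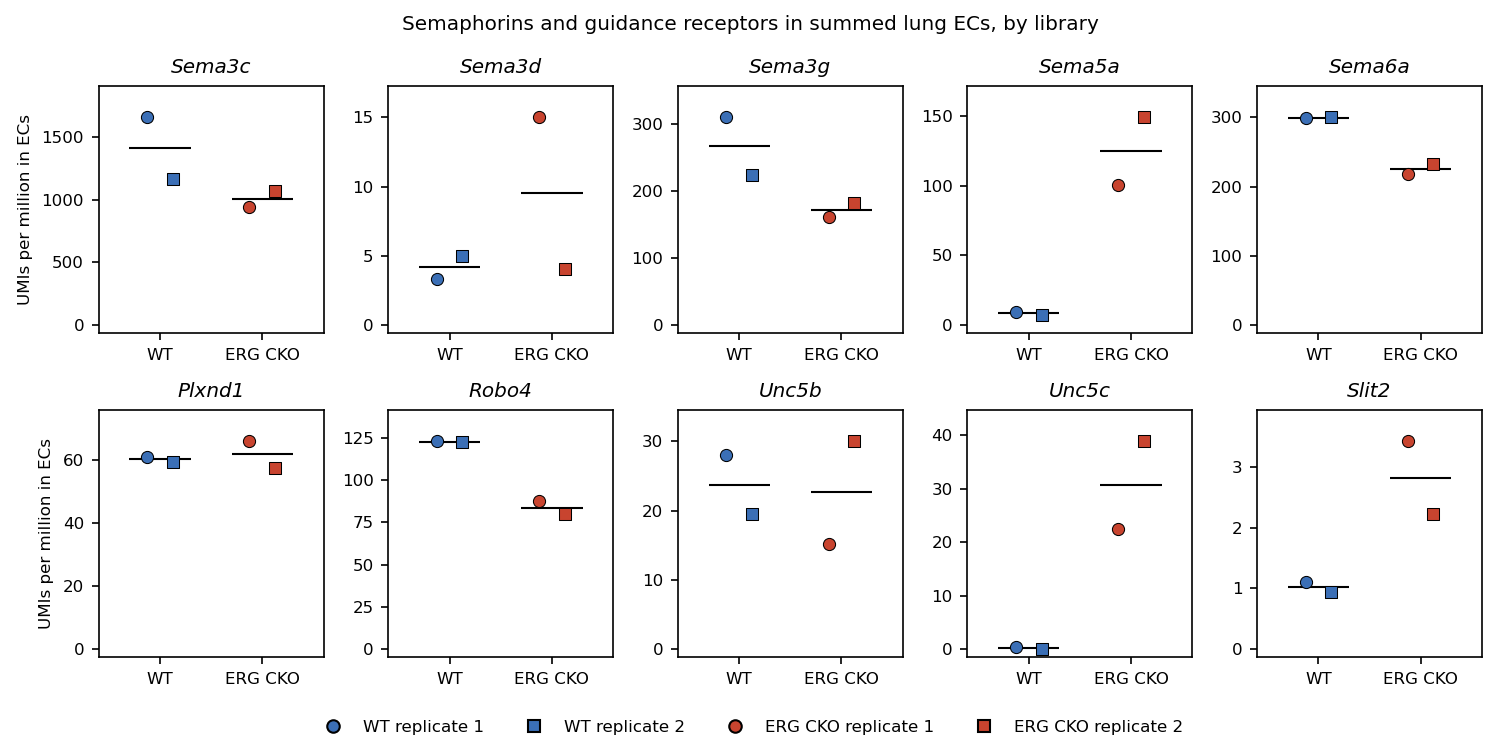
CPM of each gene in the summed ECs of the 4 libraries (blue WT, red ERG CKO, circles replicate 1, squares replicate 2), with bars at the mean of each genotype and each vertical axis drawn from 0. Robo4, Sema3c, Sema3g and Sema6a are lower in both ERG CKO libraries, Sema5a and Unc5c are higher in both, and Plxnd1 and Unc5b overlap between genotypes.

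Robo4 came nearest to a call. It stood at 123 and 122 CPM in WT ECs and at 87.7 and 79.7 in ERG CKO ECs, with a log2 fold change of -0.59 (SE 0.13, adjusted p = 0.051). Its 2 WT values were nearly equal and the genotypes did not overlap. Robo4 was called under 6 of 16 alternatives, among them leaving out the unnamed EC clusters (adjusted p = 0.046), and its fold change stayed between -0.69 and -0.51. The fits without an ERG CKO library, also among the 6, leave 1 mouse in that group, so the WT pair alone gives the spread. Calls over all genes rose in those fits as well.

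Sema3g and Sema3c also lay lower in both ERG CKO libraries than in both WT libraries. Sema3g stood at 309.9 and 223 CPM in WT ECs and at 162 and 182 in ERG CKO ECs (log2 -0.68, SE 0.17, adjusted p = 0.084). Sema3c, with the values given above, had a log2 fold change of -0.53 (SE 0.18, adjusted p = 0.174). For both genes the 2 WT libraries differed from each other by more than the 2 ERG CKO libraries did. Sema3g was called under 7 of 16 alternatives and Sema3c under 5, among them fits without an ERG CKO library, which leave 1 mouse in that group. The fold change ranged from -0.90 to -0.42 for Sema3g and from -0.77 to -0.26 for Sema3c.

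Sema6a stood at 299 and 300.4 CPM in WT ECs and at 218 and 233 in ERG CKO ECs (log2 -0.45, SE 0.12, adjusted p = 0.097). Its fold change stayed between -0.49 and -0.43 under the alternatives. The call of Sema6a without ERG CKO replicate 2 took its spread from the WT pair alone. Sema3d stood at 3.32, 5.02, 15 and 4.08, so that ERG CKO replicate 1 alone was high (log2 1.23, SE 0.60, adjusted p = 0.374). Without that library the sign turned (-0.12), whereas without ERG CKO replicate 2 the gene was called higher, with 1 mouse left in that group. Plxnd1 (60.9, 59.3, 65.8 and 57.5 CPM, log2 0.01, SE 0.14, adjusted p = 0.992) and Unc5b (28.1, 19.4, 15.2 and 30.03, log2 -0.16, SE 0.33, adjusted p = 0.880) overlapped between the genotypes, and both changed sign under some alternatives. Slit2 stood at 1.11, 0.941, 3.43 and 2.22 from 3, 3, 16 and 6 UMIs.

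The makeup of the ECs moved with genotype beside these values. The share of gCap-like cells among ECs was 74.0% and 70.6% in the WT libraries against 54.9% and 59.0% in the ERG CKO libraries, and that of aCap-like cells was 7.45% and 10.3% against 14.6% and 18.1%. The gCap-like names rested partly on Gpihbp1, Adgre5, Glp1r, Kit and Aplnr, which were themselves called between the genotypes in ECs. Any positive marker fold counted. At a marker log2 fold of 0.5 the largest gCap-like cluster (705 cells) stayed unnamed, and without the called markers no cluster was gCap-like. Haemoglobin and other erythroid markers summed to 35.1 and 50.8 CPM in ECs of WT, against 1532 and 2199 in those of ERG CKO, with all 5 markers detected, and 4 ECs had over 20 haemoglobin UMIs. Without those 4 cells Robo4 was called (adjusted p = 0.047) and no other of the 7 genes was. The 8 platelet markers summed to 71.7 and 145 in WT ECs and to 379.6 and 217 in ERG CKO ECs. The part of the erythroid and platelet RNA in the results was not tested beyond these values. In the sum over all ECs, a change in the mix of subtypes and a change in RNA per cell cannot be told apart, so the contrast was repeated within each capillary group.

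Within gCap-like ECs (9789 genes tested, of which 3.39% were called, 2.09% higher and 1.3% lower), 6 of the 8 genes passed the filter and none was called. All 6 fold changes were negative, and DESeq2 called none. An unadjusted p under 0.05 was found for 4 of the 6 and for 1420 of all 9789 genes. Robo4 stood at 126 and 139.9 CPM in WT and at 89.4 and 92.2 in ERG CKO (log2 -0.59, SE 0.15, adjusted p = 0.052). Sema3g had a log2 fold change of -0.56 (SE 0.16, adjusted p = 0.102), Sema3c of -0.44 (SE 0.15, adjusted p = 0.162) and Sema6a of -0.34 (SE 0.14, adjusted p = 0.260). With the replicate number as a term, Sema3c, Sema3g and Robo4 were called lower (0.0035, 0.00034 and 0.00078), among 1035 calls over all genes. Under the alternatives the fold change of Sema3c ranged from -0.63 to -0.04. That of Sema3g ranged from -0.75 to 0.04, and it was positive only without alignment of the libraries. The 332 calls over all genes were 15 of 8744 when libraries were not aligned before clustering. The fold changes of Robo4 and Sema3c were close to those in all ECs, and the erythroid markers summed to 38.0 and 46.1 CPM in gCap-like ECs of WT and to 2934 and 4062 in those of ERG CKO.

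Within aCap-like ECs (6966 genes tested, of which 10.6% were called, 4.92% higher and 5.71% lower), Sema6a and Robo4 were called lower in ERG CKO, 2 of the 6 genes tested. Sema6a stood at 594 and 499.7 CPM in WT and at 290.2 and 270.3 in ERG CKO, a 1.97-fold lower level (log2 -0.98, SE 0.18, edgeR adjusted p = 0.00087). Robo4 stood at 132 and 105 in WT and at 58.3 and 52.3 in ERG CKO, a 2.13-fold lower level (log2 -1.09, SE 0.26, adjusted p = 0.0072). For both genes the genotypes were well separated. The call of Sema6a held under all 17 alternatives run, with adjusted p of at most 0.0277, whereas Robo4 was not called with DESeq2 (0.141), without WT replicate 1 (0.054) or with thinned cells (0.071). WT gave 43 and 72 aCap-like ECs, ERG CKO gave 109 and 91, and their summed erythroid markers were 49.3, 46.8, 115 and 18.02 CPM. The 10 EC markers summed to 25742 and 25311 CPM in aCap-like ECs of WT and to 15022 and 15107 in those of ERG CKO, and the 8 platelet markers to 73.9 and 153 against 386 and 189. Their part in the result was not tested.

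The other genes of aCap-like ECs did not pass. Sema3c had a positive fold change (log2 0.57, SE 0.28, adjusted p = 0.258), with 323 and 153 CPM in the WT libraries against 440.4 and 252 in the ERG CKO libraries. Sema3c was called higher under 5 of 17 alternatives, some of which leave 1 mouse in a group, and its fold change ranged from 0.10 to 1.43. Sema3g (log2 -0.25, SE 0.67), Plxnd1 (log2 -0.41, SE 0.42) and Unc5b (log2 -0.22, SE 0.35) had adjusted p of 0.899, 0.674 and 0.810. The levels of all 4 genes overlapped between the genotypes.

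**Figure D4:**
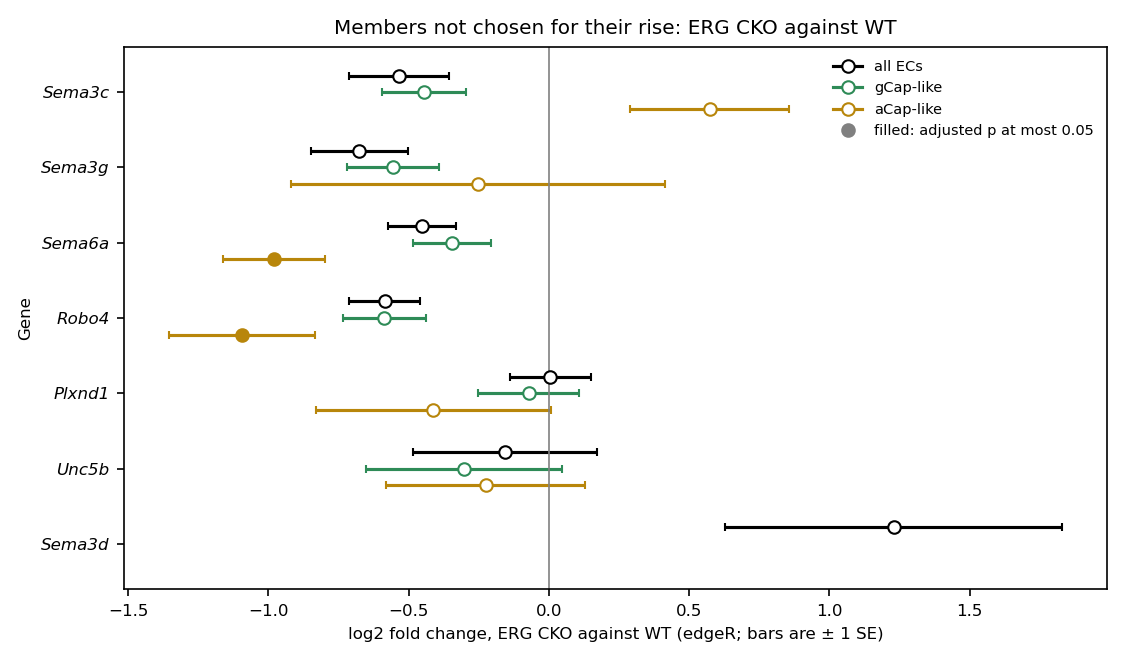
Log2 fold change of ERG CKO against WT for the 7 genes tested in all ECs (black), and for those tested in gCap-like (green) and aCap-like (gold) ECs, with bars of 1 SE and filled points at an adjusted p of at most 0.05. The filled points are Sema6a (-0.98) and Robo4 (-1.09) in aCap-like ECs, and Sema3c lies on opposite sides of 0 in gCap-like and aCap-like ECs.

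Whether the 2 capillary groups differed in their response was tested as the interaction of subtype and genotype (9365 genes tested, of which 6.79% were called, 2.89% with a higher and 3.9% with a lower effect in aCap-like ECs). Of the 6 tested genes, Sema3c and Sema6a were called. The log2 effect of ERG CKO on Sema3c was larger in aCap-like than in gCap-like ECs by 1.01 (SE 0.23, adjusted p = 0.0048), and the corresponding difference for Sema6a was -0.64 (SE 0.18, adjusted p = 0.024). Robo4 did not pass (-0.51, SE 0.28, adjusted p = 0.382), so its response in aCap-like ECs is not shown to differ from that in gCap-like ECs. Neither gene was called with DESeq2 (adjusted p = 0.154 and 0.572) or without ERG CKO replicate 1 (0.249 and 0.099), and Sema6a also missed without WT replicate 1 (0.182) and without ERG CKO replicate 2 (0.200).

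Sema5a and Unc5c, listed for their rise, are given as a description. In the summed ECs Sema5a stood at 9.60 and 7.53 CPM in WT and at 100.1 and 149 in ERG CKO, from 26, 24, 467 and 402 UMIs. Pooled over the libraries of a genotype, the ratio was 13.9 (95% interval 10.5 to 18.9, exact and for counting error only). Unc5c stood at 0.369 and 0 in WT and at 22.5 and 38.9 in ERG CKO, from 1, 0, 105 and 105 UMIs, a pooled ratio of 168 with an interval of 29.9 to 6673, because a single UMI makes up the WT count. Unc5c passed the filter on low counts only through the ERG CKO libraries.

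Both genes were higher in ERG CKO in each capillary group. In aCap-like ECs Sema5a stood at 43.1 and 29.9 in WT and at 302 and 375 in ERG CKO, a pooled ratio of 9.58 (95% interval 6.61 to 14.4), and in gCap-like ECs at 5.59 and 3.59 against 78.0 and 82.6, a ratio of 17.6 (10.8 to 30.6). Unc5c in aCap-like ECs was at 0 and 0 in WT and at 93.3 and 123 in ERG CKO from 64 and 68 UMIs, at least 30.5-fold higher when set against a floor of 3 counts over the WT group. In gCap-like ECs it stood at 0.559 and 0 in WT and at 12.2 and 16.5 in ERG CKO. The 3 clusters joined as gCap-like had Sema5a at 57.01 to 100.5 CPM in ERG CKO and at 1.68 to 6.68 in WT, and it was higher in ERG CKO in each of the 3.

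The unnamed ECs held Sema5a at 4.23 and 4.04 CPM in WT and at 80.8 and 145 in ERG CKO, and Unc5c at 0 and 0 against 13.3 and 30.9. Other named EC subtypes held less. Sema5a in artery-like ECs was at 0 in both WT libraries and at 28.7 and 64.8 in ERG CKO from 4 and 8 UMIs, and in vein-like ECs at 0 and 0 against 6.56 and 37.2 from 4 and 5 UMIs. In ERG CKO replicate 2 the UMIs of either subtype came from 1 cell. Lymphatic-like ECs had 1 Sema5a UMI, in WT replicate 1. Unc5c had 1 UMI in vein-like ECs and none in artery-like or lymphatic-like ECs. In fibroblast-like cells Sema5a stood at 52.2, 29.4, 51.8 and 39.3 CPM, overlapping between genotypes, and Unc5c was lower in both ERG CKO libraries than in both WT libraries by the values given above. In some other classes Sema5a was higher in both ERG CKO libraries, from at most 11 UMIs a library. It stood at 11.5, 0, 32.3 and 86.9 in platelet-like, 3.68, 3.71, 16.0 and 12.9 in epithelial-like and 7.82, 8.12, 56.2 and 32.8 in mural-like cells. The part of EC RNA there was not tested.

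The share of cells with a UMI showed the same order. At 1000 UMIs per cell, Sema5a was found in 4.65% and 1.39% of aCap-like ECs of WT and in 30.3% and 33.0% of those of ERG CKO, with exact 95% intervals of 21.8% to 39.8% and 23.5% to 43.6% in ERG CKO. Unthinned, the shares were 20.9%, 16.7%, 71.6% and 75.8%, at median depths of 5885 to 7467.5 UMIs. As a background, none of 224 to 416 thinned T cell-like cells per library, a class not known for the gene, had a Sema5a UMI (3 counts would be a share of 0.721% to 1.34%, and the exact 95% upper limits were 0.883% to 1.63%), and unthinned the highest share was 1.16%, at median depths of 5875.5 to 6363.5 UMIs. Unc5c was found in 0 of 43 and 0 of 72 thinned aCap-like ECs of WT (3 counts would be 6.98% and 4.17%, and the exact 95% upper limits were 8.22% and 4.99%), and in 11.01% and 6.59% of those of ERG CKO.

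Sema5a and Unc5c were also counted together per cell. In ERG CKO replicate 1, 78 of 109 aCap-like ECs had Sema5a, 40 had Unc5c and 32 had both, and in ERG CKO replicate 2 the counts were 69, 45 and 35 of 91. Of the cells with Unc5c, 32 of 40 and 35 of 45 also had Sema5a. In gCap-like ECs of ERG CKO the overlap was 11 of 25 and 9 of 20 cells with Unc5c. The highest counts in 1 cell were 11 Sema5a UMIs and 5 Unc5c UMIs. Depth differs between cells of a library, and its part in these overlaps was not tested.

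In ECs the wider family was looked at through a list of 56 ligands and receptors, of which 54 were in the matrix. Without Sema5a and Unc5c, 28 passed the filter in ECs, none was called and 14 had an unadjusted p under 0.05, 10 of them lower and 4 higher. Over all genes tested, 8.3% were lower and 8.44% higher at that limit. DESeq2 called 1. The median log2 fold change of the 28 was -0.37, against 0.01 over all genes tested. Apart from the 10 genes above, those with most UMIs in ECs were Nrp1, the neuropilin that receives class 3 semaphorins, Sema3f, Sema6d and the plexins Plxna2 and Plxna1, counted without regard to transcript length.

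Nrp1 stood at 1037 and 1171 CPM in WT ECs and at 1130.2 and 1440.2 in ERG CKO ECs (log2 0.18, SE 0.15, adjusted p = 0.645). Sema3f (log2 -0.40, SE 0.12), Plxna2 (log2 -0.88, SE 0.25), Plxna1 (log2 -0.47, SE 0.20) and Sema6d (log2 -0.37, SE 0.17) did not pass either, with adjusted p of 0.142, 0.122, 0.294 and 0.345. In gCap-like ECs 1 of 25 tested genes of the list was called, where 3.39% of all genes tested were. It was Flrt3, a transmembrane protein that binds UNC5 receptors, with 1.68 and 3.07 CPM in WT and 16.6 and 12.4 in ERG CKO (log2 2.55, SE 0.47, adjusted p = 0.011). DESeq2 called none of the 25.

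In aCap-like ECs 7 of 16 tested genes of the list were called, 6 lower and 1 higher, where 5.71% and 4.92% of all genes were. Besides Sema6a and Robo4, the lower genes were Plxna2, a plexin that binds Sema6a (log2 -2.37, SE 0.25, adjusted p = 2.6e-06), the semaphorins Sema7a (log2 -1.93) and Sema3f (log2 -1.28), and the netrin Ntn4 (log2 -1.17), and the higher gene was the plexin Plxnb2 (log2 3.22, SE 0.61, adjusted p = 0.00096). Plxna2 stood at 179 and 185 CPM in WT and at 30.6 and 41.4 in ERG CKO. Sema7a, Ntn4 and Plxnb2, and the aCap values of Plxna2 and Sema3f, were picked after their values were seen. Sema6a and its plexin Plxna2 were thus both lower in aCap-like ECs of both ERG CKO libraries, as were the summed EC markers given above. The A-type plexins Plxna4 (log2 -0.90, SE 0.37, edgeR adjusted p = 0.146) and Plxna1 (log2 -0.51, SE 0.21, adjusted p = 0.155) were not called there.

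Outside the endothelium the 8 genes were tested in 9 classes with at least 20 cells in every library, where few genes changed at all: 0.674% of genes were called in dendritic cell-like, 0.633% in fibroblast-like, 0.292% in B cell-like, 0.0945% in T cell-like, 0.0243% in monocyte or interstitial macrophage-like and 0.0194% in NK cell-like cells, and 0 in alveolar macrophage-like, neutrophil-like and platelet-like cells. Of 18 pairs of gene and class that passed the filter, none was called by edgeR or DESeq2, and 2 had an unadjusted p under 0.05. Both lay in monocyte or interstitial macrophage-like cells, where Plxnd1 stood at 30.8 and 36.5 CPM in WT and at 14.3 and 20.9 in ERG CKO (log2 -1.06, SE 0.28, adjusted p = 0.443). In fibroblast-like cells 7 of the 8 passed the filter, with log2 fold changes of -0.70 to 0.34, and Slit2 was at log2 0.01 (SE 0.25, adjusted p = 0.9999). Mural-like and epithelial-like cells had under 20 cells in ERG CKO replicate 2 and were not tested.

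The genes with the most similar pattern over 17 cell groups (12 classes other than ECs and 5 EC subtypes, each the mean of its libraries) were sought among 11208 genes of at least 20 CPM in 1 group, by Pearson's r of log2(CPM + 1). Robo4 was nearest to Caskin2 (r = 0.99), the receptor tyrosine kinase gene Tie1 (0.99) and Sema3f (0.99), and Sema6a to Ecscr (0.98), the tight junction gene Cldn5 (0.97) and Gm9917 (0.97). Sema3c was nearest to Tspan7 (0.97), the ephrin gene Efnb1 (0.97) and the prostaglandin transporter gene Slco2a1 (0.96), and Sema3g to the chemokine gene Cxcl12 (0.95), the transcription factor gene Sox17 (0.92) and Gpihbp1 (0.92), which anchors lipoprotein lipase on capillaries. These neighbours of Robo4, Sema6a and Sema3c included widely used EC genes.

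The neighbours of the remaining genes were of other kinds. Slit2 was nearest to Sod3 (0.96), the SLIT receptor gene Robo2 (0.96) and Dpt (0.95), and Unc5c to Srpx (0.92), C1qtnf2 (0.91) and Egflam (0.90). Sema5a was nearest to Tmem47 (0.95), Slc16a9 (0.95) and Pcdh1 (0.95), and Sema3d to Sbspon (0.98) and Gm26885 (0.96). Plxnd1 was nearest to Acvr1 (0.94), Cntln (0.94) and Gamt (0.92), and Unc5b to Schip1 (0.94), Pcdhga5 (0.94) and Endov (0.93). The groups share libraries and differ in depth, so these correlations are descriptions over 17 points.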

How the data were processed

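Single-cell libraries were made by the authors from dissociated whole lungs on the 10x platform, and Cell Ranger 3.1.0 and mm10 are named in the submitters' processing notes. The deposited matrix holds raw UMI counts per gene and cell, and all of its columns were assigned to samples by their labels. It holds more barcodes than the study kept after its quality filter, whose limits are not given in the sources used here. The lowest cell had 500 UMIs and 300 genes, and the highest mitochondrial share was 49.2%. Intervals and floors cover counting error only. Total counts per library ranged from 11263911 to 18646776, and library size limits the precision of the low genes.

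Cells were aligned across libraries and clustered with Seurat 5.3.0, without the guidance genes, Erg or sex-linked genes, and ECs were clustered again also without the 371 genes called between genotypes in ECs. Clusters were named from fixed markers, with at least 3 markers required. Of all cells, 60 (0.641%) were called doublets and kept, 1382 stayed unnamed and were left out of the class comparisons.

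UMI counts were summed per library and cell group and tested with edgeR 4.0.16 (quasi-likelihood, TMM, filterByExpr, Benjamini-Hochberg over all genes tested, with an adjusted p of 0.05 as the limit of a call), and the SE is the log2 fold change divided by the square root of F. Genotypes were compared in groups with at least 20 cells in every library, and comparisons within libraries had the library as a block. DESeq2 1.42.0, other normalization, filters, cell filters, thinning to 1000 UMIs, clustering settings and leaving out each library were alternatives. The code was tested on simulated data. The members and gene lists were chosen with earlier results of these data known. Besides the members, the text names guidance genes called in ECs or gCap-like ECs, the 5 with the highest mean level in ECs, and per member the 3 genes of most similar pattern, with exceptions stated, and 1 gene under that last rule is not reported here. Each library is 1 mouse, and p-values measure the spread between 2 mice per group. In a contrast of genotypes with 1 library left out, the spread came from the other group alone. Replicates differed by more than sampling noise (chi-square per degree of freedom 12.8 in WT and 14.0 in ERG CKO).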

Additional observations from a re-analysis of the deposited data

Results flagged for a closer look

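Sema3c and Sema6a were singled out because the effect of ERG CKO differed between the capillary groups in a test of that difference (edgeR, subtype by genotype). The difference in log2 effect, aCap-like minus gCap-like, was 1.01 for Sema3c (adjusted p = 0.0048) and -0.64 for Sema6a (adjusted p = 0.024), in 2 libraries per genotype. Neither gene was called with DESeq2 or without ERG CKO replicate 1.

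A cluster of 937 cells with a median of 966 UMIs entered no comparison. Its Sema5a level was 129.7 and 209.6 CPM in the ERG CKO libraries (66 and 51 UMIs), against 15.1 and 17.7 in WT from 3 UMIs each. Its Unc5c level was 37.3 and 74.0 in ERG CKO, from 19 and 18 UMIs, against 0 in both WT libraries. These values were listed because signal in cells outside the comparisons lay above that in the WT libraries. The cells were not named. In WT replicates 1 and 2 and ERG CKO replicates 1 and 2 they also held Robo4 at 85.6, 64.8, 66.8 and 82.2 CPM. Sema3g stood there at 337, 259, 139 and 193. The part of EC RNA in the levels of this cluster was not tested.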

How the results depend on the processing

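Of 702 single-gene values under alternatives, 20 lost a call, 36 gained one and 27 changed sign. Another 602 kept their direction and side of the threshold or, for the genotype sizes of Sema5a and Unc5c, which have no test, moved by less than the spread between replicates, and the rest are such sizes that moved by more. The cause of these shifts was not tested. In ECs, the count of called members (0 of 7) was 1 with DESeq2, 4 without the filter on low counts, 1 without haemoglobin-rich cells, 2 with thinned cells, 1 without unnamed clusters and 0 to 5 when 1 library was left out (0 and 1 for WT replicates 1 and 2, 3 and 5 for ERG CKO replicates 1 and 2). Under the same settings the count of the guidance list (0 of 28) was 1, 10, 1, 2 and 1, and 1 to 14 when 1 library was left out. Over all genes, the 371 calls became 1115 and 1175 when ERG CKO replicate 1 or 2 was left out, 203 and 233 when WT replicate 1 or 2 was, and 1151 without the filter. With the replicate number as a replicate block, 4 members, 14 guidance genes and 1262 genes in all were called in ECs, and 3 members in gCap-like ECs. The labels do not say what a replicate number marks, and sex goes with it: deviations of the same-numbered libraries correlated at 0.297 over 10715 genes, with 2 pairs. In gCap-like ECs the count (0) was 3 without the filter. Over all genes there, the 332 calls became 15 without alignment, 178 with DESeq2, 714 without the filter, 156 without WT replicate 2, 1035 with the replicate block, 132 with thinned cells, 201 at resolution 0.4 and 113 with a marker log2 fold of 0.5. In aCap-like ECs the 741 became 372 with DESeq2, 173 with thinned cells and 1259 without alignment. In aCap-like ECs the count (2) was 1 with DESeq2, 4 without alignment and 2 to 3 when 1 library was left out. In other classes the count (0) was 1 without the filter and 0 to 2 when 1 library was left out. Between aCap-like and gCap-like ECs the count among the genes not chosen for their rise (4) fell with thinned cells, where Unc5b was not called. For the difference in response the count (2) was 0 with DESeq2, 1 with thinned cells, at resolution 0.4 or with a marker log2 fold of 0.5, and 0 to 2 when 1 library was left out.

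Log2 fold changes turned sign as follows, with ranges where 1 library at a time was left out. In ECs, Sema3d ranged from -0.12 (no ERG CKO replicate 1) to 1.79, Plxnd1 from -0.13 (no ERG CKO replicate 1; -0.02 with no WT replicate 2) to 0.11 and Unc5b from -0.66 to 0.28 (no ERG CKO replicate 1; 0.13 with no WT replicate 1). Plxnd1 was also -0.0007 with DESeq2, -0.0020 with the replicate block, -0.043 at no more than 10% mitochondrial UMIs, -0.023 without alignment and -0.23 without unnamed clusters, and Unc5b 0.23 with thinned cells. In gCap-like ECs, Plxnd1 ranged from -0.19 to 0.054 (no WT replicate 2) and Unc5b from -0.69 to 0.21 (no WT replicate 1; 0.01 with no ERG CKO replicate 1). Without alignment, Sema3g there was 0.036 and Plxnd1 0.070, and Plxnd1 was 0.65 with thinned cells and 0.34 at resolution 1.2. In aCap-like ECs, Sema3g ranged from -2.55 to 0.64 (no WT replicate 1; 0.50 with no ERG CKO replicate 2), Plxnd1 from -1.09 to 0.0041 (no ERG CKO replicate 2) and Unc5b from -0.55 to 0.066 (no WT replicate 1). Without alignment, Sema3g there was 0.97 (adjusted p = 0.029) and Plxnd1 0.36. Between ECs and other cells, Sema3d was -0.57 without alignment and Unc5c -0.72 with DESeq2. Between aCap-like and gCap-like ECs, Robo4 was 0.081 with thinned cells. Naming without the called markers left no gCap-like cluster and gave no value there. Members with few UMIs in ECs (Sema3d, Slit2, and Unc5c in WT) are limited by depth.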
